A study of Homo sapiens with 6 samples.

Results

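The genes described here encode enzymes that modify drugs and other foreign compounds, retinoids, steroids and aldehydes. They were taken by name, as the protein-coding rows of the deposited table whose symbols carry a family stem of the aldo-keto reductases (AKR1), aldehyde dehydrogenases (ALDH), cytochromes P450 (CYP), glucuronosyltransferases (UGT), short-chain dehydrogenases (DHRS, RDH), glutathione transferases (GST), sulfotransferases (SULT), alcohol dehydrogenases (ADH) or hydroxysteroid dehydrogenases (HSD). The rule took 25 of the 2885 genes of the table, all among its 2036 protein-coding rows. The same rule takes 182 protein-coding genes of the GENCODE annotation, so 13.7% of them were in the table, against 10.2% of all protein-coding genes. The table held 6 of 19 ALDH, 6 of 56 CYP, 4 of 12 DHRS, 3 of 13 SULT, 2 of 22 UGT, 2 of 16 GST, 1 of 18 HSD and 1 of 11 AKR1 genes, and 0 of 7 ADH and 0 of 8 RDH genes. Genes of these families outside the table were not analysed here. The grouping is by name, and 3 members (ALDH1L1, ALDH1L2 and ALDH5A1) act on folate or on a product of the neurotransmitter GABA instead of on foreign compounds, retinoids or steroids.

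The cells were RKO, an established human colorectal carcinoma line, measured by RNA sequencing in 2 groups of 3 libraries. The first group was labelled shKMT5A, with the genotype given as a knockdown of KMT5A, the enzyme that adds the first methyl group to lysine 20 of histone H4. The second group was labelled shNC, with the genotype given as wild type. The labels do not say which hairpins were used, whether a group was 1 clone or whether its libraries were grown separately, so p-values reflect how much these 6 libraries scatter, and that scatter may be technical.

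KMT5A itself was higher in the libraries labelled shKMT5A, against the label. It had 4015, 3898 and 3297 normalized counts in the libraries labelled shKMT5A, against 1298, 1245 and 1307 in the shNC libraries (log2 fold change 1.54 ± 0.075 SE, limma, adjusted p = 1.00e-08). Directions below follow the labels and are not those of a lowered KMT5A transcript. The table held only genes that already differed between the groups: in the authors' deposited table the largest adjusted p was 0.0499 and no log2 fold change was smaller in size than 1. Reads over the table ranged from 1891460 to 1980866 in the libraries labelled shKMT5A and from 1363382 to 1369655 in the shNC libraries, and total depth is unknown. Read numbers for shKMT5A replicate 3, here and in the totals over 3 libraries below, come from a step of 0.994 normalized counts per read that a separate check did not accept, and that library was left out of the tests on reads. The table held 5 of 15 markers of colon epithelium, with KRT8, KRT18 and KRT19 lower and MUC2 and CDH17 higher, and their summed level was 45692 to 47212 in the libraries labelled shKMT5A and 144310 to 157141 in the shNC libraries. Of 12 hepatocyte markers 0 were in the table, of 12 leukocyte markers 4 (summed level 114 to 139 in the libraries labelled shKMT5A and 489 to 548 in the shNC libraries, CD8A higher and CORO1A, GZMB and CD79A lower) and of 12 fibroblast and endothelial markers 6 (95.3 to 121 in the libraries labelled shKMT5A and 172 to 181 in the shNC libraries, with COL3A1, CDH5 and ACTA2 higher, LUM and TEK lower, and DCN lower and at 0 in all libraries labelled shKMT5A). Most of the leukocyte sums was 1 gene, CORO1A, which averaged 105 in the libraries labelled shKMT5A and 490 in the shNC libraries. All libraries came from the RKO line, so these are levels of marker genes and not counts of other cell types. The part of these shifts in the results below was not tested. In bulk RNA, fewer cells expressing a gene and less RNA per cell cannot be told apart.

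Enzymes of these families work in sequence. Oxidation or reduction by P450s, dehydrogenases and reductases exposes a reactive group, and transferases then attach glucuronic acid, sulfate or glutathione so that the product dissolves and leaves the cell. The same chemistry sets the local level of hormones: retinol is oxidised by way of retinaldehyde to retinoic acid and then cleared, cholesterol is cut and oxidised to steroids, and sulfation or glucuronidation switches steroids off.

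All 25 genes passed the test, 13 of them higher and 12 lower in the libraries labelled shKMT5A (limma on log2(normalized count + 1), adjusted p under 0.05 over the whole table). Of all genes tested, 99.9% passed, 57.4% of them as higher and 42.6% as lower, so passing says nothing particular about these enzymes. The groups of libraries did not overlap for any of the 25, as for 99.7% of the table. Their median log2 fold change was 1.05, against 1.13 over all genes tested, and their median absolute log2 fold change was 1.52, against 1.75. With 13 values at or above 1.05 and 12 at or below -1.08, that median is the value of 1 gene, CYP2J2, at the inner edge of the higher group. Most families were split: ALDH 3 higher and 3 lower, CYP 3 and 3, DHRS 2 and 2, SULT 1 and 2, and GST 1 and 1, while both UGT genes were higher.

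DHRS2 outweighed the other members. The 25 genes summed to 31830 ± 1564 normalized counts in the libraries labelled shKMT5A and 6363 ± 168 in the shNC libraries (SD, n = 3 each). Without DHRS2 the other 24 summed to 4527 ± 92.8 in the libraries labelled shKMT5A and 4543 ± 97.0 in the shNC libraries, a difference smaller than the spread between libraries. DHRS2 made up 84.7% to 86.5% of the sum in the libraries labelled shKMT5A and 28.2% to 28.9% in the shNC libraries.

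**Figure D1:**
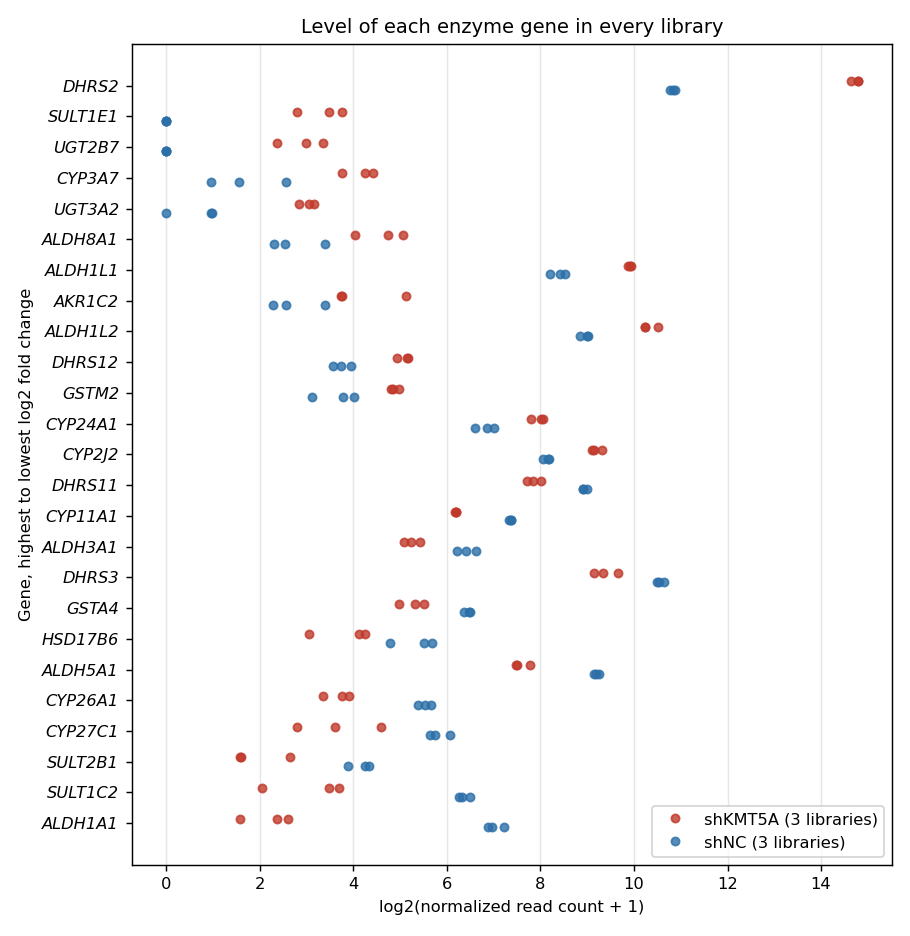
Level of the 25 enzyme genes in every library on the scale log2(normalized read count + 1), with 1 point per library and genes ordered from the highest to the lowest log2 fold change. The 3 shKMT5A points of each gene lie clear of its 3 shNC points, on the right for the 13 higher genes and on the left for the 12 lower ones.

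Sequences around a transcription start are shown for 4 members picked by their values. DHRS2 had the highest and ALDH1A1 the lowest log2 fold change on the log2(value + 1) scale, and the sulfotransferases SULT1E1 and SULT1C2 moved in opposite directions. No result here rests on these sequences. The first rank depends on the pseudocount, since SULT1E1 and UGT2B7, with no read in shNC, lay above DHRS2 with a pseudocount of 0.1 and in the edgeR and DESeq2 fits. Each is the RefSeq window from 250 bases before to 50 bases after a transcription start (GRCh38.p14), 5′ to 3′ on the gene's strand. Capitals mark matches on either strand to any of 5 motifs: the TATA box TATAAA, the antioxidant response core TGACNNNGC, the xenobiotic response core GCGTG, the nuclear receptor hexamer AGGTCA and the interferon response core.
DHRS2, chr14:23629865-23630164, plus strand: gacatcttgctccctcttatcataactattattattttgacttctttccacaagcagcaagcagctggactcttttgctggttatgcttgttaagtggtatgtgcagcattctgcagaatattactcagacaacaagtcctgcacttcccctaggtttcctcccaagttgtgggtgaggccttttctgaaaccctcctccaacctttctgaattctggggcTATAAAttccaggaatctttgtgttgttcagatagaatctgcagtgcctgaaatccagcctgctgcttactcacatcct
SULT1E1, chr4:69860096-69860395, minus strand: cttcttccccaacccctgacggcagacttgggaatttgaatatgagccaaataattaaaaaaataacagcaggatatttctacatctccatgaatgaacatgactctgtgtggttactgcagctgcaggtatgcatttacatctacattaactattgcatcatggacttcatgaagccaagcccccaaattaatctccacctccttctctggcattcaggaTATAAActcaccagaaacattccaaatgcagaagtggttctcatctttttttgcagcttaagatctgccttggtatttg
SULT1C2, chr2:108288645-108288944, plus strand: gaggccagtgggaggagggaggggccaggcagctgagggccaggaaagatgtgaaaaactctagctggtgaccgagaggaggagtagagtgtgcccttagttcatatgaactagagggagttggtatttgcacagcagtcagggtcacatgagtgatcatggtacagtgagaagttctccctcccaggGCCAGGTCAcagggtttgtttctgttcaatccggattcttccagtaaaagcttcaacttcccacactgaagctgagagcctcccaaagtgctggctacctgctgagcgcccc
ALDH1A1, chr9:72953004-72953303, minus strand: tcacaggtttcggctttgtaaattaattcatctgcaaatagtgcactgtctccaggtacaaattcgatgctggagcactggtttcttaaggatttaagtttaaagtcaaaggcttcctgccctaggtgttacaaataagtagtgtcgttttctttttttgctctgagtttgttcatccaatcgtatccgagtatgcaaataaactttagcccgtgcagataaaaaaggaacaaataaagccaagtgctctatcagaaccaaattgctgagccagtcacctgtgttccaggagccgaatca

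DHRS2 and SULT1E1 carry the TATA letters at the same distance from the start, 29 to 24 bases before it. SULT1C2 holds the antioxidant response core on the opposite strand and the hexamer on the gene's own strand, and these matches overlap. ALDH1A1 has no match in this window, which lies 127389 bases downstream of the outermost start of the gene in the deposited table. RefSeq windows were found for 21 of the 25 genes, 28 windows in all. The TATA letters were in 5 of the 28 windows (ALDH1L1, CYP26A1, CYP3A7, DHRS2 and SULT1E1), against 11.5% of 35116 windows of the same length, and the hexamer in 6, against 13.8%. The xenobiotic response core was in 9 of the 28, against 36.5%, the antioxidant response core in 2 (GSTA4 and SULT1C2), against 13.3%, and the interferon response core in 1 (CYP26A1), against 3.57%. A match is a run of letters and not a measured binding site.

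DHRS2 (ENSG00000100867, chromosome 14, 23630115 to 23645639, plus strand, GRCh38) had the largest difference in mean normalized count of the 25. It encodes a short-chain dehydrogenase/reductase that reduces dicarbonyl compounds and has been reported to bind MDM2, the regulator of p53. Its normalized counts were 28221, 25439 and 28248 in the libraries labelled shKMT5A, against 1834, 1743 and 1882 in the shNC libraries. The lowest library labelled shKMT5A stood 13.5 times above the highest shNC library. DHRS2 averaged 27302 ± 1614 in the libraries labelled shKMT5A and 1820 ± 70.6 in the shNC libraries (SD, n = 3 each), 15-fold higher, and limma gave a log2 fold change of 3.91 ± 0.054 (SE, adjusted p = 1.13e-12). Permuting the 6 labels exactly gave a two-sided p = 0.1, which is as low as groups of 3 libraries can reach. Any gene whose groups do not overlap reaches it, as 99.7% of the table would. DHRS2 was also singled out with its difference known, so this p adds no support. Per kilobase of gene length, DHRS2 had 3613 normalized counts in the libraries labelled shKMT5A and 241 in the shNC libraries. On that scale it ranked 16 in the libraries labelled shKMT5A and 251 in the shNC libraries among the 2036 protein-coding genes in the table. No other annotated gene overlaps it, and JPH4, its nearest neighbour among the tested genes at 51315 bases, was also higher. The 5 genes whose profile over the 6 libraries was closest to that of DHRS2 were IFIT2, IFIT1, RERG, RHOT1P3 and KRT75 (Pearson correlations of log2 values of at least 0.9998), a likeness that rests on the difference between the groups.

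**Figure D2:**
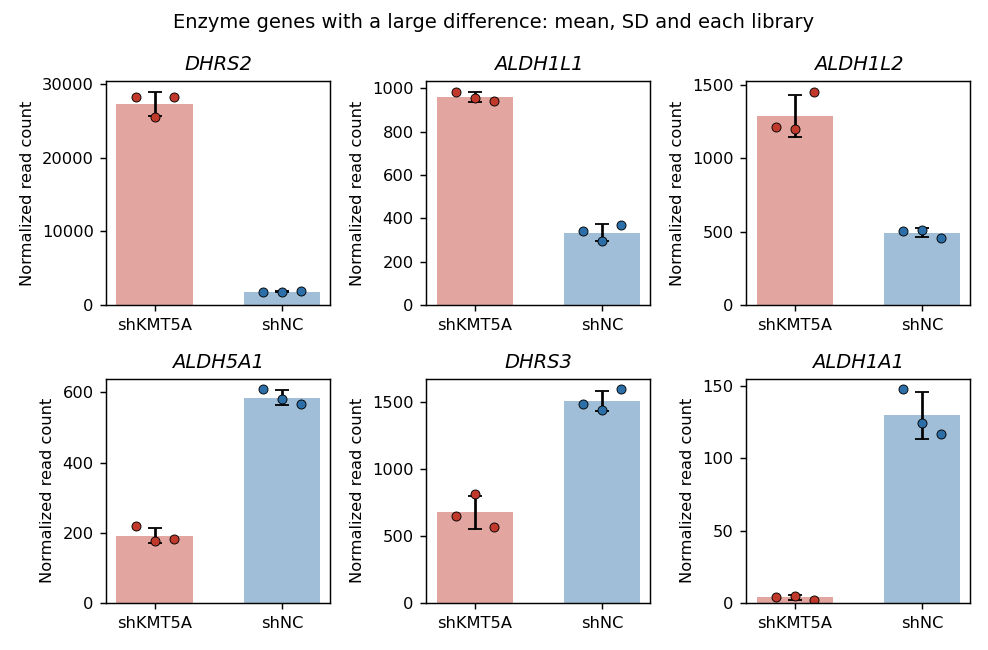
Normalized read counts of 6 enzyme genes in the shKMT5A and shNC groups; bars are means, error bars are SD and points are the 3 libraries of each group. DHRS2, ALDH1L1 and ALDH1L2 were higher in the libraries labelled shKMT5A, and ALDH5A1, DHRS3 and ALDH1A1 were lower.

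The 4 members grouped here as retinoid enzymes, ALDH1A1, DHRS3, CYP26A1 and CYP27C1, were lower in the libraries labelled shKMT5A. ALDH1A1 oxidises retinaldehyde to retinoic acid, DHRS3 reduces retinaldehyde back to retinol, CYP26A1 hydroxylates retinoic acid and so clears it, and CYP27C1 desaturates retinol. This grouping was made with the values known and its shared direction depends on it: ALDH8A1, first described as a retinal dehydrogenase and placed below with enzymes of other aldehydes, was higher (log2 fold change 1.87).

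ALDH1A1 (chromosome 9, 72900662 to 73080442, minus strand) had 4.19, 5.12 and 1.99 normalized counts in the libraries labelled shKMT5A, against 148, 124 and 117 in the shNC libraries. It was close to 0 in every library labelled shKMT5A, with 11 reads over the 3 libraries labelled shKMT5A and 403 over the 3 shNC libraries. Its mean was 34.4 times higher in shNC, and its log2 fold change of -4.83 ± 0.31 (SE, adjusted p = 7.39e-08) was the lowest of the 25. DHRS3 (chromosome 1, 12567910 to 12617731, minus strand) had 650, 809 and 568 normalized counts in the libraries labelled shKMT5A, against 1484, 1439 and 1591 in the shNC libraries. Per kilobase it had the highest shNC level of the 25, 496 normalized counts, and 223 in the libraries labelled shKMT5A. Its log2 fold change was -1.17 ± 0.11 (SE, adjusted p = 2.05e-06), and the groups did not overlap.

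CYP26A1 and CYP27C1 were scarcer. CYP26A1 (chromosome 10, 93073475 to 93077890, plus strand) had 12.6, 9.21 and 13.9 normalized counts in the libraries labelled shKMT5A, against 49.5, 40.4 and 45.2 in the shNC libraries (log2 fold change -1.85, adjusted p = 4.19e-05). Its nearest gene in the table, 513797 bases away, was RBP4, which carries retinol in blood and was lower as well. CYP27C1 (chromosome 2, 127184120 to 127220078, minus strand) had 23.0, 11.3 and 5.96 normalized counts in the libraries labelled shKMT5A, against 48.6, 52.9 and 65.9 in the shNC libraries. The libraries labelled shKMT5A differed widely among themselves: the mean was 4.16 times higher in shNC with all libraries and 6.48 times without shKMT5A replicate 1. Its log2 fold change was -2.15 ± 0.40 (SE, adjusted p = 3.67e-04).

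Other genes of retinoid handling went both ways. Of 27 genes listed for retinoid uptake, binding, storage, receptors and targets, 9 were in the table, 5 higher and 4 lower. That is 33.3%, against 10.2% of all protein-coding genes. The list was chosen with earlier results known, and its share was not tested. Its median log2 fold change was 1.91, against 1.13 over all genes. That median is the value of 1 gene, RPE65, the lowest of the 5 higher ones. CRABP1, a cytosolic carrier of retinoic acid, had 111, 101 and 88.4 normalized counts in the libraries labelled shKMT5A and no read in shNC. Against a floor of 3 reads over the shNC group, CRABP1 was 104-fold higher. The exact 95% interval of its ratio, which covers counting error only, began at 83.7. STRA6, the cell-surface receptor that takes up retinol from its plasma carrier, had 23.0, 26.6 and 13.9 normalized counts in the libraries labelled shKMT5A, against 2.86, 1.93 and 7.86 in the shNC libraries. RARRES3, first described as a retinoid-induced gene, RPE65, the retinoid isomerase of the eye, and BCO1, which cleaves carotene, were also higher, with log2 fold changes of 2.24, 1.91 and 2.40. BCO1 rested on 1 read in the shNC libraries. The 4 lower genes act in retinol storage and transport. LRAT, which esterifies retinol for storage, had 3.14, 2.05 and 3.97 normalized counts in the libraries labelled shKMT5A, against 26.7, 37.5 and 26.5 in the shNC libraries. DGAT1, which can also esterify retinol, RBP7, a cellular retinol carrier, and RBP4 had log2 fold changes of -1.14, -1.79 and -1.34.

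**Figure D3:**
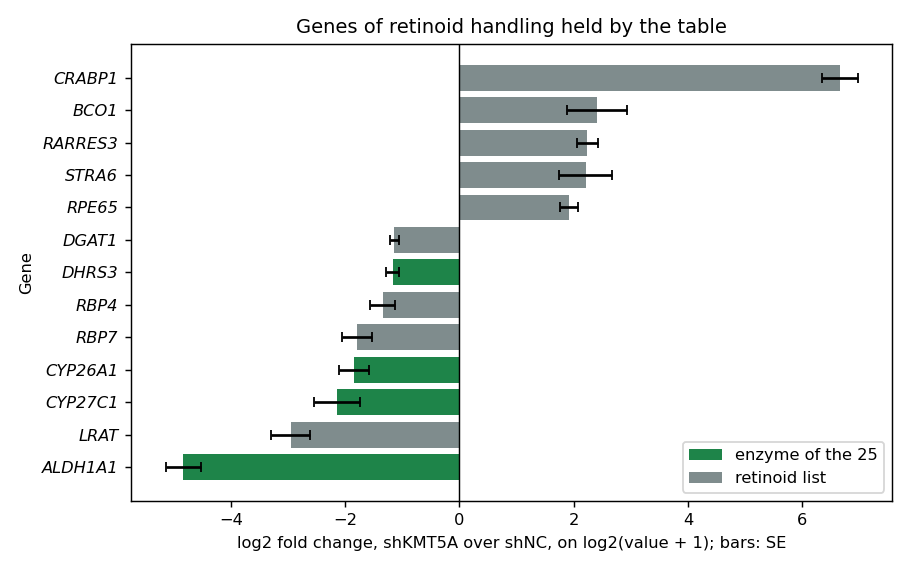
Log2 fold change, shKMT5A over shNC on the log2(value + 1) scale, of the 4 retinoid enzymes among the 25 and the 9 genes of the retinoid list held by the table; error bars are SE of the limma fit. The 4 enzymes lie between -4.83 and -1.17, and the listed genes between -2.96 and 6.66.

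Enzymes of steroid and vitamin D metabolism were split, 2 higher and 3 lower. CYP24A1, which inactivates the vitamin D hormone (chromosome 20, 54153449 to 54173973, minus strand), had 221, 264 and 257 normalized counts in the libraries labelled shKMT5A, against 114, 127 and 96.3 in the shNC libraries. The groups were apart by 1.74 times between their nearest libraries, and the log2 fold change was 1.13 ± 0.13 (SE, adjusted p = 1.07e-05). AKR1C2, which inactivates dihydrotestosterone, had 12.6, 12.3 and 33.8 normalized counts in the libraries labelled shKMT5A, against 9.52, 3.85 and 4.91 in the shNC libraries. Shared sequence with the other AKR1C genes makes these few reads uncertain. The group ratio of 3.21 was 2.04 without shKMT5A replicate 3, the high library, and the log2 fold change of 1.46 (adjusted p = 0.0104, the highest of the 25) no longer passed without shNC replicate 2 (1.22, adjusted p = 0.0519).

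CYP11A1, the mitochondrial enzyme that cuts the cholesterol side chain to start steroid synthesis (chromosome 15, 74337759 to 74367740, minus strand), had 71.2, 72.7 and 72.5 normalized counts in the libraries labelled shKMT5A, against 165, 159 and 165 in the shNC libraries. Libraries within each group were nearly equal, and the log2 fold change was -1.16 ± 0.12 (SE, adjusted p = 3.60e-06). Transcripts on the opposite strand share exonic positions with it and moved the same way: PPIAP46 averaged 333 normalized counts in the libraries labelled shKMT5A and 796 in the shNC libraries, and AC090826.1 averaged 37.0 in the libraries labelled shKMT5A and 123 in the shNC libraries. The sources used here do not say whether counting used strand, so reads at the shared exonic positions cannot be told apart. Across the 25 genes, 12 have annotated exons that overlap another gene. DHRS11, a reductase of steroids and other carbonyl compounds (chromosome 17, 36591798 to 36600806, plus strand), had 228, 210 and 257 normalized counts in the libraries labelled shKMT5A, against 477, 482 and 506 in the shNC libraries. That is 2.11 times higher in shNC, with a log2 fold change of -1.08 ± 0.095 (SE, adjusted p = 1.07e-06). HSD17B6, which oxidises androgen metabolites, averaged 13.9 ± 5.71 normalized counts in the libraries labelled shKMT5A and 40.4 ± 12.2 in the shNC libraries (log2 fold change -1.52, adjusted p = 0.00228).

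Of 24 genes of steroid synthesis and response outside the name rule 3 were in the table (12.5%, against 10.2% of all protein-coding genes), 2 higher and 1 lower. NR3C1, the glucocorticoid receptor, had 662, 644 and 652 normalized counts in the libraries labelled shKMT5A, against 312, 350 and 273 in the shNC libraries. SLCO1B1, a transporter of steroid conjugates, averaged 49.9 ± 13.6 in the libraries labelled shKMT5A and 9.93 ± 5.50 in the shNC libraries. STS, the sulfatase that frees steroids from their sulfates, was lower, with 1 read over the 3 libraries labelled shKMT5A and an average of 19.4 ± 4.18 normalized counts in the shNC libraries.

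The conjugating enzymes, 7 of the 25, were 4 higher and 3 lower in the libraries labelled shKMT5A, and none reached 100 normalized counts in either group mean. SULT1E1, the estrogen sulfotransferase (chromosome 4, 69841212 to 69860152, minus strand), had 12.6, 10.2 and 5.96 normalized counts in the libraries labelled shKMT5A and no read in the shNC libraries. UGT2B7, which glucuronidates steroids and opioids (chromosome 4, 69051363 to 69112987, plus strand), had 4.19, 9.21 and 6.95 normalized counts in the libraries labelled shKMT5A and likewise none in the shNC libraries. Against a floor of 3 reads over the shNC group, SULT1E1 was 9.93-fold and UGT2B7 7.03-fold higher. The exact 95% intervals of their ratios, which cover counting error only, began at 7.51 and 5.22. These genes lie 728225 bases apart, and SULT1E1 is the nearest gene of the table to UGT2B7. UGT3A2, a transferase of other sugars (chromosome 5, 36035017 to 36071358, minus strand), had 7.33, 6.14 and 7.95 normalized counts in the libraries labelled shKMT5A, against 0.952, 0 and 0.983 in the shNC libraries. With 2 reads in the shNC group, its ratio of 11.1 had an exact 95% interval of 2.71 to 97.7, which covers counting error only. GSTM2, a glutathione transferase of the mu class, averaged 28.3 ± 1.85 in the libraries labelled shKMT5A and 11.9 ± 3.84 in the shNC libraries (log2 fold change 1.23, adjusted p = 0.00255). Its annotated exons overlap those of GSTM1 and GSTM4 on the same strand, so its reads are uncertain.

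Among the lower conjugating enzymes, SULT1C2, which sulfates phenols (chromosome 2, 108288639 to 108309915, plus strand), had 3.14, 10.2 and 11.9 normalized counts in the libraries labelled shKMT5A, against 88.6, 76.0 and 79.6 in the shNC libraries. Every shNC library was at least 6.38 times above the highest library labelled shKMT5A, and the log2 fold change was -3.28 ± 0.39 (SE, adjusted p = 1.30e-05). SULT2B1, which sulfates cholesterol and pregnenolone (chromosome 19, 48552075 to 48599425, plus strand), had 5.23, 2.05 and 1.99 normalized counts in the libraries labelled shKMT5A, against 18.1, 19.3 and 13.8 in the shNC libraries. On 9 reads over the libraries labelled shKMT5A, its mean was 5.51 times higher in shNC, and 8.44 times without shKMT5A replicate 1 (log2 fold change -2.22, adjusted p = 2.66e-04). GSTA4, which conjugates products of lipid peroxidation, averaged 38.0 ± 7.22 in the libraries labelled shKMT5A and 86.3 ± 3.95 in the shNC libraries (log2 fold change -1.18, adjusted p = 1.13e-04).

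Aldehyde dehydrogenases outside the retinoid pathway were 3 higher and 2 lower. ALDH1L1 and ALDH1L2 are the cytosolic and mitochondrial enzymes that oxidise formyltetrahydrofolate, a carrier of single carbon units, and both were higher in the libraries labelled shKMT5A. ALDH1L1 (chromosome 3, 126103562 to 126197994, minus strand) had 984, 957 and 941 normalized counts in the libraries labelled shKMT5A, against 343, 295 and 368 in the shNC libraries. ALDH1L2 (chromosome 12, 105019784 to 105084577, minus strand) had 1211, 1201 and 1454 in the libraries labelled shKMT5A, against 508, 514 and 458 in the shNC libraries. They differed by similar amounts, with log2 fold changes of 1.52 ± 0.089 and 1.38 ± 0.089 (SE, adjusted p = 3.70e-08 and 8.00e-08). Per kilobase, ALDH1L2 stood above ALDH1L1 in both groups, with 151 and 70.1 normalized counts in the libraries labelled shKMT5A and 58.0 and 24.4 in the shNC libraries. ALDH8A1, an enzyme of tryptophan breakdown by the kynurenine route, averaged 24.5 ± 8.62 in the libraries labelled shKMT5A and 6.09 ± 3.01 in the shNC libraries (log2 fold change 1.87, adjusted p = 0.00105).

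ALDH5A1, the mitochondrial enzyme that completes GABA breakdown (chromosome 6, 24494852 to 24537207, plus strand), had 218, 177 and 181 normalized counts in the libraries labelled shKMT5A, against 608, 580 and 566 in the shNC libraries. It was 3.05 times higher in shNC, with a log2 fold change of -1.61 ± 0.099 (SE, adjusted p = 5.79e-08). GPLD1, which overlaps it on the opposite strand, was lower too, at 11.9 ± 1.46 in the libraries labelled shKMT5A and 49.8 ± 6.78 in the shNC libraries. The 2 genes share the positions from 24494852 to 24495205, and without strand the reads there cannot be told apart. ALDH3A1, which oxidises aromatic and lipid aldehydes and is a known target of the aryl hydrocarbon receptor, averaged 37.1 ± 4.57 in the libraries labelled shKMT5A and 84.7 ± 12.1 in the shNC libraries (log2 fold change -1.17, adjusted p = 1.13e-04).

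The remaining P450 and short-chain dehydrogenase genes were higher in the libraries labelled shKMT5A. This shared direction depends on a grouping made with the values known, which placed the lower genes of both families above. Over the whole families, CYP genes were 3 higher and 3 lower, and DHRS genes 2 and 2. CYP2J2, which epoxidises arachidonic acid (chromosome 1, 59893308 to 59926790, minus strand), had 562, 641 and 547 normalized counts in the libraries labelled shKMT5A, against 265, 291 and 286 in the shNC libraries. Per kilobase it was the most abundant of the 6 P450 genes in both groups, with 195 normalized counts in the libraries labelled shKMT5A and 93.8 in the shNC libraries, and its log2 fold change was 1.05 ± 0.089 (SE, adjusted p = 7.32e-07). CYP3A7, the fetal liver form of the main drug-metabolising P450 subfamily (chromosome 7, 99684957 to 99735196, minus strand), had 12.6, 20.5 and 17.9 normalized counts in the libraries labelled shKMT5A, against 0.952, 1.93 and 4.91 in the shNC libraries. Its ratio of 6.54 was 11.8 without shNC replicate 3, the log2 fold change was 2.45 (adjusted p = 3.31e-04), and an annotated readthrough with CYP3A51P shares its exons. DHRS12 averaged 33.0 ± 2.88 in the libraries labelled shKMT5A and 12.5 ± 1.82 in the shNC libraries (log2 fold change 1.33, adjusted p = 4.69e-04). AL162377.1, which overlaps it on the opposite strand, averaged 30.8 ± 7.47 in the libraries labelled shKMT5A and 12.3 ± 3.87 in the shNC libraries.

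Other lists of the pathway had shares in the table of 6.25% to 12.5%, near the 10.2% of all protein-coding genes. Of 21 genes of the aryl hydrocarbon receptor pathway and other xenobiotic receptors 2 were in it, both higher. PPARG, the nuclear receptor of fat cells and colon epithelium, had 560, 602 and 548 normalized counts in the libraries labelled shKMT5A, against 192, 205 and 196 in the shNC libraries. CEBPB, a stress and liver transcription factor, averaged 2304 ± 108 in the libraries labelled shKMT5A and 1145 ± 82.3 in the shNC libraries. Of 24 targets of NRF2, the regulator of antioxidant genes, and genes of glutathione synthesis 3 were in the table. FTH1, the ferritin heavy chain, was higher, at 15955 ± 1513 in the libraries labelled shKMT5A and 4770 ± 290 in the shNC libraries, as was OSGIN1 (76.4 ± 12.1 in the libraries labelled shKMT5A and 27.8 ± 12.3 in the shNC libraries). GSR, which regenerates glutathione, was lower (689 ± 49.9 in the libraries labelled shKMT5A and 1411 ± 19.0 in the shNC libraries). Of 48 further enzymes of drug metabolism outside the name rule 3 were in the table. MAOA, which oxidises monoamines, had 53.4, 71.7 and 60.6 normalized counts in the libraries labelled shKMT5A, against 2.86, 2.89 and 1.97 in the shNC libraries. BPHL was higher, at 227 ± 28.1 in the libraries labelled shKMT5A and 95.6 ± 15.4 in the shNC libraries, and EPHX4 lower, at 63.4 ± 17.9 in the libraries labelled shKMT5A and 142 ± 1.26 in the shNC libraries.

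The number of members called higher differed between fits. The values above keep the authors' factor for each library, which cannot be checked without the genes outside the table. Giving the 6 libraries equal medians within the table, with limma as before, moved the median log2 fold change of all genes by -0.24 and left 13 members higher and 12 lower. The edgeR and DESeq2 fits changed the scaling, the count model and the number of libraries (5, without shKMT5A replicate 3) together. The part of the scaling and of the model was not tested. In these fits the median of all genes was lower by 0.62 on the log2 scale with edgeR and by 1.02 with DESeq2. Limma without shKMT5A replicate 3 gave a median of 1.13 over all genes and 13 higher members. The 12 lower members passed with edgeR and DESeq2. Their fold changes moved down with that of all genes (DHRS11 from -1.08 with limma to -2.19 with DESeq2), so this is no independent check. For the same reason, a higher member that did not pass there is not shown to be unchanged. Over the table, 1228 genes were called lower with limma, 1228 with edgeR and 1229 with DESeq2, 42.6% of the table in each. As higher, the table had 1655 genes (57.4%) with limma, 1492 (51.7%) with edgeR and 786 (27.2%) with DESeq2. Of the 13 higher members 10 passed with edgeR and 5 with DESeq2: DHRS2, SULT1E1, UGT2B7, ALDH1L1 and ALDH1L2. DHRS2 kept log2 fold changes of 3.25 and 2.85 in these fits. UGT3A2 did not pass with DESeq2, where its log2 fold change was 2.35. The limma value of 2.37 depends on the pseudocount of 1 (3.89 with a pseudocount of 0.1), so the 2 values are unlike measures. CYP2J2 and CYP24A1 had 0.07 each with DESeq2, and AKR1C2 had -0.01, a change of sign. Of the listed genes, BPHL, OSGIN1, CEBPB, STRA6, BCO1 and NR3C1 kept their sign with DESeq2 but did not pass, and the same held for the markers CDH17, CDH5 and ACTA2 (adjusted p = 0.175, 0.173 and 0.983). ACTA2 did not pass with edgeR either (adjusted p = 0.240).

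**Figure D4:**
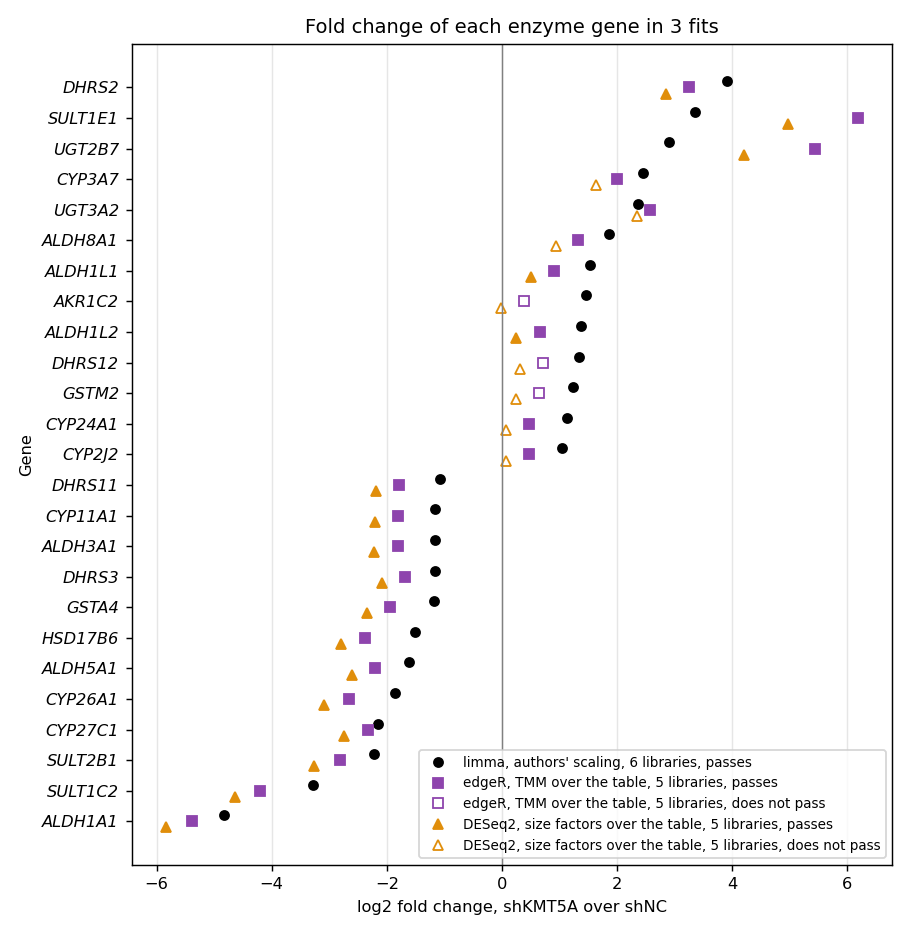
Log2 fold change, shKMT5A over shNC, of the 25 enzyme genes in 3 fits: limma with the authors' scaling and 6 libraries, and edgeR and DESeq2 scaled within the table on the reads of 5 libraries. Filled symbols passed an adjusted p of 0.05 and open symbols did not; the 12 lower genes passed in all 3 fits, and 13, 10 and 5 of the higher genes passed.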

How the data were processed

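Total RNA of 6 RKO libraries (3 shKMT5A, 3 shNC) was sequenced. Per the submitters' processing notes, the tools were DESeq2 1.20.0, featureCounts 1.5.0-p3, HISAT2 2.0.5, fastp and CASAVA 1.8, and the genome was GRCh38. The deposited signal is a normalized read count per gene: 100% of the values of each library were whole multiples, within 0.001, of what 1 read is worth there (0.952 to 1.05), so the authors applied a single factor to each library. Tests on reads used 5 libraries, leaving out shKMT5A replicate 3, where 1 read was worth 0.994, a step so close to 1 that the recovery of its reads was not accepted by a separate check. The deposited log2 fold changes and p-values are those of the authors.

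All 2885 genes had a mean normalized count of 1 or more and were tested with limma 3.58.1 (trend, robust; R 4.3.3) on log2(value + 1), as shKMT5A over shNC. Adjusted p-values are Benjamini-Hochberg values over all of them. Counts were also tested with edgeR 4.0.16 (quasi-likelihood) and DESeq2 1.42.0. The limma, edgeR and DESeq2 tests were tried on simulated data with 200 genes changed, as many up as down, at equal depth. In the data 99.9% of the genes passed, so the simulation cannot show how scaling within the table behaves here. The exact permutation tests used scipy 1.17.1. Positions are those of the table and were identical to GENCODE for 25 of 25 members. The members, gene lists and roles were chosen with earlier results of these data known. Values in every library are given for DHRS2 and for members with a group mean of 100 or more or a log2 fold change of 2 or more in size, and the 5 genes most like DHRS2 are named by Pearson correlation. Labels do not say whether same-numbered libraries belong together, and deviations of same-numbered libraries correlated at -0.038 to 0.00088, so numbers were not used as pairs.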

Additional observations from a re-analysis of the deposited data

How the results depend on the processing

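The 13 higher and 12 lower members also passed under the lower pseudocount of 0.1, equal medians and the replicate block. Taking the filter away only repeated the main fit, because all 2885 genes already had a mean of 1 or more. Leaving out 1 library gave 12 (without shNC replicate 2, AKR1C2 not passing) to 13 higher and 12 lower members and a median log2 fold change of 0.97 to 1.08. The table holds genes already selected as different in these same libraries, so these counts are no independent check. Asking for a mean of at least 10 normalized counts removed SULT1E1, UGT2B7, UGT3A2 and CYP3A7 and left 9 higher and 12 lower, so that the median turned to -1.16. The median was 0.81 with equal medians, 0.39 with edgeR and -0.0091 with DESeq2, which is the value of AKR1C2 in that fit, and DESeq2 called 5 members higher; both fits also used other models and 5 libraries. KMT5A passed in all these fits, with log2 fold changes of 0.59 (DESeq2) to 1.62. Depth limits SULT1E1, UGT2B7 and UGT3A2, which had 28, 20 and 21 reads over the libraries labelled shKMT5A and 0, 0 and 2 over shNC.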
